A study of Mus musculus with 31 samples.

Results

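The 32 genes described here encode enzymes and regulators of cholesterol and fatty acid synthesis. They were picked by gene symbol from among the 24594 genes counted, and all 32 were found. Of them, 16 encode enzymes of sterol synthesis, 5 act in sterol regulation and transport, and 11 belong to fatty acid synthesis, elongation and desaturation. RNA was sequenced from regulatory T cells (Tregs), the CD4+ T cells that restrain immune responses, in 31 libraries from FVB/N mice. The cells were sorted as live CD45+CD3+CD4+CD8-CD25+ cells, a gate that holds no FOXP3 stain. KEP mice (K14cre;Cdh1F/F;Trp53F/F) develop spontaneous mammary tumors because Cre, driven by the keratin promoter K14, deletes both floxed genes in epithelial cells, and they were taken at a tumor size of 225 mm2. WT mice (wt;Cdh1F/F;Trp53F/F) carry the same floxed alleles without Cre. KEP Tregs came from tumor, tumor-draining lymph node (TDLN), lung, blood and spleen, with 3 libraries per tissue and 1 mouse per library. WT Tregs came from healthy mammary gland (4 libraries) and from lymph node, lung, blood and spleen (3 libraries each), and every WT library was a pool of 3 mice, as the labels' mouse numbers read. The ages of the mice are not given in the sources used here. Collagenase A was used to digest the tumors and Liberase the lungs, and the protocol names no enzyme for the other tissues, so digestion and tissue cannot be told apart in any comparison of tumor or lung with another tissue. Libraries held 8154765 to 15258958 counts over genes.

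Cholesterol is built from acetyl-CoA through mevalonate, isoprenoid diphosphates, squalene and lanosterol, and the transcription factor SREBP2 (gene Srebf2) drives the genes of that route when sterols are low. SCAP carries SREBP out of the endoplasmic reticulum, INSIG proteins hold it back when sterols are plentiful, and Insig1 is itself an SREBP target. SREBP1 (gene Srebf1) acts more on fatty acid genes, which turn citrate or acetate into acetyl-CoA, acetyl-CoA into palmitate, and palmitate into longer and less saturated chains. Activated T cells are known to raise both routes as they grow and divide.

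Promoters are shown for 5 members called in many comparisons, among those the reference table holds, and for Acat2, which was called in none, so that the letters can be set beside the values below. The windows run from 250 bases before to 50 bases after the annotated start, from RefSeq on build GRCm38.p6. They are chr5:28071162-28071461 (plus strand), chr3:129532136-129532435 (plus strand), chr13:8885356-8885655 (plus strand), chr5:4104648-4104947 (minus strand), chr10:76531355-76531654 (plus strand) and chr17:12960676-12960975 (minus strand), each written 5′ to 3′ along the gene. Capitals mark exact matches, on either strand, to the sterol regulatory element core TCACNCCAC, the NF-Y box CCAAT or the GC box GGGCGG.
Insig1: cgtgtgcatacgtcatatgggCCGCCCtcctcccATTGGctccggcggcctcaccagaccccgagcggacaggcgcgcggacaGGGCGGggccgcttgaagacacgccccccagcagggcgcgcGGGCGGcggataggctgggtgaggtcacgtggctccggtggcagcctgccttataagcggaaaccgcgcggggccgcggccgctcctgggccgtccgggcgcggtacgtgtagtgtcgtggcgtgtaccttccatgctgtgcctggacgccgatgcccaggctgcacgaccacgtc
Elovl6: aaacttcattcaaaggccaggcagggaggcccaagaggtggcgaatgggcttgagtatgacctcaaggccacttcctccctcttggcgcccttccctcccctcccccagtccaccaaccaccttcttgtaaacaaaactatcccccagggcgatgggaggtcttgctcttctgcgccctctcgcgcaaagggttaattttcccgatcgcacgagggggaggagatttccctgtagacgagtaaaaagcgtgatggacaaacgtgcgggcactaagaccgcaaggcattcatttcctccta
Idi1: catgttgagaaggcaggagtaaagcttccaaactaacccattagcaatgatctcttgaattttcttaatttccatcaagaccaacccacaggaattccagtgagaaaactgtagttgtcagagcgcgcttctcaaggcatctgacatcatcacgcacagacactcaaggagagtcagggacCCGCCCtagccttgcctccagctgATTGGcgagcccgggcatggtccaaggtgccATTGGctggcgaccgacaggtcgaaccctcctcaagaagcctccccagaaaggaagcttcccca
Cyp51: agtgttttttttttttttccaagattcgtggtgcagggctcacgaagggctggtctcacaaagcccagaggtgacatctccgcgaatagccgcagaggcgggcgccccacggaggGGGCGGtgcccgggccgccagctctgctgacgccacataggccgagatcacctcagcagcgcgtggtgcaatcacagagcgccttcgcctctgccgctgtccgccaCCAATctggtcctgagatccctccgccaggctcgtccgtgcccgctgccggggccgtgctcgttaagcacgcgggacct
Lss: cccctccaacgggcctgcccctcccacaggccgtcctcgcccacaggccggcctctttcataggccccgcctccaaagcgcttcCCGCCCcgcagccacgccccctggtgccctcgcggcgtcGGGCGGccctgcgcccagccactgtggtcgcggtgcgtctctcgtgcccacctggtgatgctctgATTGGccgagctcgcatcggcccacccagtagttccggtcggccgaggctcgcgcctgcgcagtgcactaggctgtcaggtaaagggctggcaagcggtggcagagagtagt
Acat2: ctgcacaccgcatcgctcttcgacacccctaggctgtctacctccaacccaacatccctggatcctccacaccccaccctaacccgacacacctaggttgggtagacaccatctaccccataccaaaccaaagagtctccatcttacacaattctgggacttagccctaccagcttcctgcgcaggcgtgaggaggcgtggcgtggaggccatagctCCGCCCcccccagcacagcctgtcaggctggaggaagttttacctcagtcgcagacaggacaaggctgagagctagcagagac

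The table held 33 windows for 25 of the 32 members. CCAAT stood in 63.6% of these windows, against 37.4% of all 32851 windows in the table, and GGGCGG in 72.7%, against 35.7%. TCACNCCAC stood in 3.03% of the members' windows, the Hmgcs1 window alone, against 1.24% of all windows. Sterol enzyme windows (16) held CCAAT in 75.0% and GGGCGG in 81.2%. Of 10 fatty acid windows 6 held CCAAT and 5 held GGGCGG. The Elovl6 window held none of the 3 motifs, and the Acat2 window a GC box alone. These are counts of letters in short windows, not binding sites, and the shares were not tested. The set of all windows was not limited to genes expressed in these libraries, and some members have several windows. Stard4, Fdps, Sqle, Scd1, Fdft1, Scd2 and Fads1 had no window.

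The levels below are depth-scaled counts (CPM), computed with edgeR's TMM factors over the 31 libraries, and changes are log2 differences with their standard error (SE). A gene was called where its Benjamini-Hochberg adjusted p was under 0.05 in edgeR's quasi-likelihood test, with p-values adjusted over every gene tested. Values that do not overlap between the groups compared are common. The share of all genes tested without overlap ran from 24.1% (KEP TDLN against WT lymph node) to 64.7% (KEP tumor against KEP spleen). The p-values measure the spread between these libraries, single mice in KEP and pools in WT, and the mice behind different tissues are not named in the labels. In the 24 libraries of lymph node, lung, blood and spleen, summed CPM of 10 T cell genes lay between 88 and 103% of the WT spleen mean. In the libraries labelled as Tregs from WT mammary gland that sum was 482, 2044, 182 and 233 CPM, 3.13 to 35.2% of the WT spleen mean and far below every sorted library of those 4 tissues. KEP tumor libraries had 6047, 3573 and 1867 CPM, 32.1 to 104% of that mean. In bulk RNA, fewer T cells in the sample and less of an RNA per T cell cannot be told apart, which bears on every level from tumor and mammary gland. The exons of Fdft1 and Ctsb, Fdps and Gm43738, Tm7sf2 and Vps51, Cyp51 and Akap9, and Srebf1 and Rai1 overlap, as do those of Acss2 with Ggt7 and Gss. Exons of Scap, Hmgcs1, Idi1, Lss, Scd2 and Elovl6 overlap genes that are not annotated as protein-coding. Whether reads were counted by strand is not given in the sources used here, so the levels of these genes are uncertain to that extent. Gm43738, Vps51 and the microRNA genes that overlap Scd2 and Srebf1 lie on the same strand as the member. Counting by strand would not separate reads from those overlaps. Fads1 and Fads2 lie on chromosome 19 (build GRCm38, 10182888 to 10196870 and 10064164 to 10101503), as do Scd1 (44394451 to 44407709) and Scd2 (44293676 to 44306864) further along it.

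Levels per kilobase of exon put Acly, the enzyme that makes cytosolic acetyl-CoA from citrate, highest of the 32 genes in WT spleen at 65.4 CPM per kb. Srebf2 followed there at 50.8 and Elovl5, which elongates polyunsaturated fatty acids, at 44.5 CPM per kb. At the low end of the same group were Scd1, a stearoyl-CoA desaturase, with 0.982 and Fads2, the desaturase of the first polyunsaturated step, with 0.0171 CPM per kb. The tumor order differed at the top, with Elovl5 at 71.9, Acly at 60.3 and Insig1 at 44.6 CPM per kb. Lowest in tumor were Tm7sf2, a sterol reductase, with 0.967, and Acss2, which makes acetyl-CoA from acetate, with 0.581 CPM per kb. In WT mammary gland, Scd1 led at 125 CPM per kb, ahead of Acly at 91.6 and Srebf1 at 69.6.

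**Figure D1:**
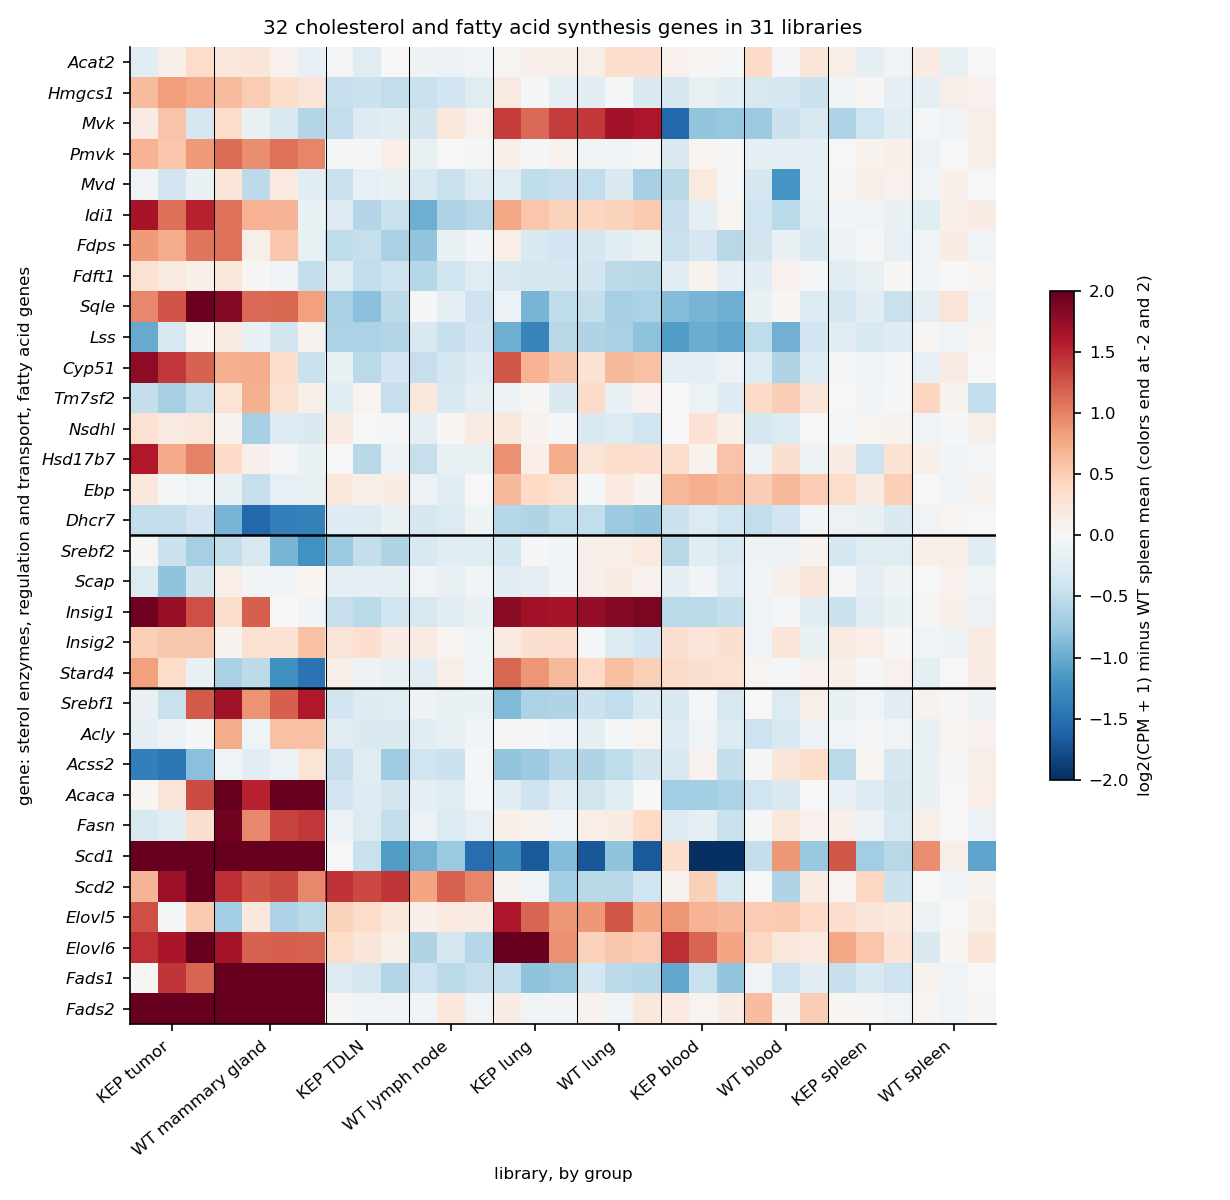
Log2(CPM + 1) of the 32 genes (down the page, sterol enzymes, then regulation and transport, then fatty acid genes) minus the WT spleen mean, for each of the 31 libraries by group across the page. Insig1 and Mvk are high in all 6 lung libraries, a block of sterol enzymes is high in the 3 KEP tumor libraries, and Acaca, Fasn, Scd1, Fads1 and Fads2 are high in the 4 WT mammary gland libraries. Colors end at -2 and 2.

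The 16 sterol enzymes did not vary as a block across the 10 groups. Group means of Mvk, mevalonate kinase, ranged 6.91-fold, with the highest in WT lung (34.8 CPM) and the lowest in KEP blood (5.03 CPM). Sqle, squalene epoxidase, ranged 5.63-fold and Idi1, isopentenyl diphosphate isomerase, 4.78-fold, both highest in KEP tumor. Acat2, the thiolase that joins acetyl-CoA units at the start of the route, ranged 1.32-fold and was called in none of 16 contrasts. As a description over the 10 group means, which share libraries and scaling, Hmgcs1 (Pearson r 0.95), Idi1 (0.93), Fdps (0.93) and Cyp51 (0.88) followed the mean of the sterol enzymes most closely. Dhcr7, the reductase of the last step to cholesterol, had r of -0.51, and Ebp, a sterol isomerase, -0.44. Over the 8 groups without tumor and mammary gland, Hmgcs1 (0.88), the fatty acid gene Acly (0.86) and Idi1 (0.80) were closest, and Scd2 was the farthest (-0.75).

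KEP Tregs were compared with WT Tregs in lung, blood, spleen and lymph node, the last being tumor-draining in KEP. No date in the library titles holds both genotypes, and KEP libraries are single mice where WT libraries are pools of 3. Tumor, genotype, date and pooling therefore cannot be told apart in any comparison of KEP with WT. The number of sorted cells also differed between libraries. It was higher in KEP blood replicates 1 and 3 than in any WT blood library. KEP blood replicate 2 had fewer cells than WT blood replicates 1 and 3. Cell numbers overlapped between KEP and WT lung, were equal in spleen and nearly so in lymph node. The part of cell number in the calls was not tested. The lung gave 8 calls among the 31 members tested, 25.8%, beside 19.9% of all 12825 genes tested (9.61% higher and 10.3% lower). Elovl6, which elongates saturated and monounsaturated chains, rose furthest, and Ebp, Nsdhl, Insig2 and Stard4 rose by smaller steps. Srebf1, Srebf2 and Scap, the SREBP precursors and their escort, were lower in KEP lung. Of the sterol enzymes 2 of 16 rose and 0 fell, of the regulators 2 of 5 rose and 2 fell, and of the 10 fatty acid genes tested 1 rose and 1 fell. Median changes of these lists were 0.11, -0.13 and -0.04, beside -0.02 for all genes.

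Elovl6 had 53.4, 52.1 and 23.5 CPM in KEP lung, against 16.9, 17.9 and 17.5 CPM in WT lung. KEP replicates 1 and 2 were far above WT and KEP replicate 3 was just above it, so the groups did not overlap (log2 change 1.29, SE 0.23, adjusted p = 0.000774). Insig2, the INSIG that is less tied to SREBP, had 26.8, 29.6 and 29.97 CPM in KEP lung, against 23.04, 19.4 and 17.7 CPM in WT lung, with no overlap (log2 change 0.51, SE 0.12, adjusted p = 0.00464). Ebp had 80.8, 68.2 and 63.7 CPM in KEP lung, against 50.9, 59.1 and 53.95 CPM in WT lung. Here KEP replicate 1 was the highest and the groups stood apart (log2 change 0.37, SE 0.09, adjusted p = 0.00779). Stard4, which moves cholesterol through the cytosol, had 125, 104 and 88.4 CPM in KEP lung, against 74.3, 85.4 and 78.7 CPM in WT lung. Its 3 KEP libraries were above all 3 WT libraries, with replicate 1 again the highest (log2 change 0.40, SE 0.11, adjusted p = 0.0118). Nsdhl, a dehydrogenase of sterol demethylation, had 28.6, 25.3 and 23.9 CPM in KEP lung, against 19.3, 19.9 and 18.1 CPM in WT lung, without overlap (log2 change 0.43, SE 0.12, adjusted p = 0.0140).

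The SREBP precursors and Scap were lower in KEP lung. Scap had 117, 119 and 131 CPM in KEP lung, against 146, 151 and 144 CPM in WT lung, with every KEP library below every WT library (log2 change -0.27, SE 0.08, adjusted p = 0.0160). Srebf1 had 81.1, 96.1 and 98.6 CPM in KEP lung, against 111, 106 and 122 CPM in WT lung. KEP replicate 1 was the lowest and no KEP library reached WT (log2 change -0.31, SE 0.10, adjusted p = 0.0301). Srebf2 was also lower, without overlap (log2 change -0.29, SE 0.10, adjusted p = 0.0472). Leaving out KEP lung replicate 1 left 2 calls, Elovl6 and Insig2, while 5 calls remained without WT lung replicate 1 and 5 without WT lung replicate 3. Among the 24 libraries of lymph node, lung, blood and spleen, KEP lung replicate 1 had the highest summed CPM of 12 proliferation genes. Of these genes 4 rose in KEP lung, and their sums were 1482, 495 and 461 CPM in KEP lung, against 378, 409 and 406 CPM in WT lung. Replicate 1, of the earliest KEP date, also had the highest sum in the other KEP tissues outside tumor. The sums were 1014, 320 and 407 CPM in KEP TDLN, 644, 356 and 307 CPM in KEP spleen, and 596, 405 and 380.5 CPM in KEP blood. Against WT, 2 of the 12 genes rose in spleen, 1 in TDLN and 0 in blood. Treg markers (6 genes, of which 4 rose) summed to 7034, 7133 and 6819 CPM in KEP lung, against 4900, 5491 and 4620 CPM in WT lung. Macrophage markers (7 genes, of which 1 rose and 2 fell) were at 38.3, 57.9 and 79.01 CPM in KEP lung, against 123, 96.9 and 166 CPM in WT lung. The part of these differences in the member calls was not tested.

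Related genes also moved between KEP and WT lung. Among 12 genes of sterol efflux, storage and LXR signalling, Soat1, which esterifies cholesterol for storage, rose by 0.51 (adjusted p = 0.000726) and Nr1h2, which encodes the sterol sensor LXRβ, stood at -0.60 (adjusted p = 3.18e-05). Of 8 genes that use isoprenoids, Ggps1 rose by 0.58 (adjusted p = 0.000557), and Coq2 (-0.43, adjusted p = 0.0160) and Fntb (-0.57, adjusted p = 0.0359) were lower. Of 14 tested genes of fatty acid uptake and oxidation, 4 rose and 2 fell. Among them were the mitochondrial carnitine carrier Slc25a20 at 0.71 (adjusted p = 0.0187), the fatty acid transporter Slc27a4 at -0.39 (adjusted p = 0.0145), Hadha at 0.23 (adjusted p = 0.0356) and Ppard at -0.27 (adjusted p = 0.0310). Of the other late sterol enzymes, Msmo1 and Sc5d had changes of 0.08 and -0.02, neither of them called.

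In blood the calls ran mostly downward. Of 31 members tested, 9 fell and 1 rose, 32.3%, beside 20.2% of all genes (9.88% higher and 10.3% lower). Sterol enzymes gave 3 lower calls of 16, the regulators 3 of 5, and fatty acid genes 3 lower and 1 higher of 10. The medians of the lists were 0.01, -0.28 and -0.30, beside -0.01 for all genes. Elovl6 was the member that rose, as in lung.

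Sqle had 9.71, 9.22 and 8.93 CPM in KEP blood, against 16.9, 18.99 and 15.1 CPM in WT blood. The KEP values lay close together and well under WT (log2 change -0.89, SE 0.18, adjusted p = 0.00107). Insig1 had 28.7, 28.7 and 29.9 CPM in KEP blood, against 39.7, 40.97 and 35.8 CPM in WT blood, with no overlap (log2 change -0.44, SE 0.09, adjusted p = 0.00171). Lss, lanosterol synthase, had 13.3, 14.5 and 14.1 CPM in KEP blood, against 20.8, 14.9 and 22.6 CPM in WT blood. WT replicate 2 came within reach of KEP but stayed above it (log2 change -0.50, SE 0.15, adjusted p = 0.0221). Scap had 119, 131 and 114 CPM in KEP blood, against 131, 145 and 161 CPM in WT blood, and KEP replicate 2 overlapped WT replicate 1 (log2 change -0.28, SE 0.08, adjusted p = 0.0125). Srebf2 had 248, 314 and 291 CPM in KEP blood, against 339, 334 and 380.4 CPM in WT blood. All KEP values were below all WT values, KEP replicate 1 the lowest (log2 change -0.32, SE 0.10, adjusted p = 0.0266). Mvk was lower without overlap as well (log2 change -0.60, SE 0.21, adjusted p = 0.0498).

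Of the fatty acid genes, Acaca, Fasn and Fads1 were lower in KEP blood, while Acly (0.06, adjusted p = 0.683) and Acss2 (-0.47, adjusted p = 0.0739), whose enzymes supply acetyl-CoA, were not called. Acaca, acetyl-CoA carboxylase, had 28.4, 28.6 and 29.5 CPM in KEP blood, against 35.1, 37.6 and 46.4 CPM in WT blood, with the groups apart (log2 change -0.48, SE 0.11, adjusted p = 0.00403). Fasn, fatty acid synthase, had 199, 211 and 175 CPM in KEP blood, against 232, 277 and 255 CPM in WT blood. No KEP library reached a WT library (log2 change -0.41, SE 0.11, adjusted p = 0.00871). Fads1, the desaturase of the later polyunsaturated step, had 15.97, 24.7 and 19.1 CPM in KEP blood, against 32.03, 24.98 and 29.1 CPM in WT blood, and KEP replicate 2 came just under WT replicate 2 (log2 change -0.55, SE 0.13, adjusted p = 0.00514). Elovl6 had 35.2, 28.2 and 21.5 CPM in KEP blood, against 16.3, 14.3 and 13.9 CPM in WT blood. Every KEP library was above WT (log2 change 0.91, SE 0.24, adjusted p = 0.00953). Without KEP blood replicate 3 the calls numbered 6, and from 7 to 11 without any other single library. Treg markers summed to 5986, 5095 and 5858 CPM in KEP blood, against 3966, 3688 and 3311 CPM in WT blood, and CD8 and NK markers (4 genes) to 19, 52.6 and 25.1 CPM in KEP blood, against 89.6, 56.5 and 101 CPM in WT blood. Of the CD8 and NK genes 3 were tested, 0 were called higher and 1 lower, and their median log2 change was 0.13. The part of these Treg, CD8 and NK marker differences in the member calls was not tested.

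Beyond the members, the ubiquinone enzyme Coq2 was lower in KEP, with 18.5, 22.7 and 20.9 CPM in KEP blood, against 33.4, 40.3 and 33.2 CPM in WT blood (log2 change -0.80, SE 0.12, adjusted p = 9.48e-05). Ggps1 was higher (0.35, adjusted p = 0.0139), and no other of the 8 isoprenoid genes was called. Of 12 efflux, storage and LXR genes 2 rose, Nceh1 (0.51, adjusted p = 0.00351) and Soat1 (0.39, adjusted p = 0.00419), and 3 fell, among them Nr1h2 (-0.45, adjusted p = 0.000452) and Mylip (-0.52, adjusted p = 0.0325). Slc27a4 (-0.53, adjusted p = 0.00114) and Slc25a20 (0.73, adjusted p = 0.0161) were the calls among 14 tested uptake and oxidation genes.

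In spleen 1 of 31 members was called, beside 4.26% of all genes, 3.3% higher. Ebp had 66.3, 58.1 and 72.2 CPM in KEP spleen, against 51.6, 48.99 and 53.9 CPM in WT spleen. The groups did not overlap (log2 change 0.35, SE 0.09, adjusted p = 0.0309), and the call was lost without KEP spleen replicate 1 or 3 or WT spleen replicate 1 or 2, while 3 members were called without WT spleen replicate 3. With the date in the library titles as a random block, 2 members were called, and DESeq2 called 2. Fads1, the member with the next smallest p, had 24.4, 27.3 and 25.1 CPM in KEP spleen, against 35.4, 32.3 and 33.8 CPM in WT spleen (log2 change -0.40, SE 0.13, adjusted p = 0.0751). Of 37 related genes tested, 0 were called in spleen by edgeR. At an unadjusted p under 0.05 there were 13 of these 37 genes and 8 of the 31 members, beside 17.9% of all genes.

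In KEP TDLN against WT lymph node 0 of 31 members were called by edgeR, beside 1.12% of all genes. At an unadjusted p under 0.05 there were 5 members, beside 14.2% of all genes, and DESeq2 called 1 and limma-voom 0. Srebf2 had 215, 259.6 and 238 CPM in KEP TDLN, against 295, 310.2 and 306 CPM in WT lymph node. The KEP values were all lower (log2 change -0.35, SE 0.10, adjusted p = 0.0994). Elovl6 had 15.8, 14.5 and 13.1 CPM in KEP TDLN, against 7.59, 9.19 and 7.82 CPM in WT lymph node, again without overlap (log2 change 0.83, SE 0.25, adjusted p = 0.122).

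Elovl6 was above every WT library of the same tissue in each KEP library of all 4 tissues, with changes of 1.29 in lung, 0.91 in blood, 0.83 in lymph node and 0.56 in spleen, and adjusted p of 0.000774, 0.00953, 0.122 and 0.212. KEP and WT values did not overlap for 34.3% of all genes in lung, 33.1% in blood, 24.1% in lymph node and 25.1% in spleen. Srebf2 had changes of -0.29, -0.32, -0.35 and -0.28, with adjusted p of 0.0472, 0.0266, 0.0994 and 0.123, and its values did not overlap in any of the 4 tissues either. KEP libraries of the 4 tissues share their title dates, and same-date libraries deviated together, so the tissues are not independent repeats. The share of all genes without overlap in all 4 tissues was not counted. Whether the effect of KEP differed between tissues was tested against spleen. For lung, blood and lymph node 0 of 31 members were called by edgeR, beside 0.0234%, 0.0% and 0.125% of all genes. DESeq2 called 0 as well, and at an unadjusted p under 0.05 there were 4 members for lung, 1 for blood and 1 for lymph node, beside 7.54%, 7.83% and 4.16% of all genes. The smallest adjusted p was 0.613 for lung (Nsdhl), 0.634 for blood (Sqle) and 0.795 for lymph node (Fads1), so a different response by tissue was not shown for any member tested.

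**Figure D2:**
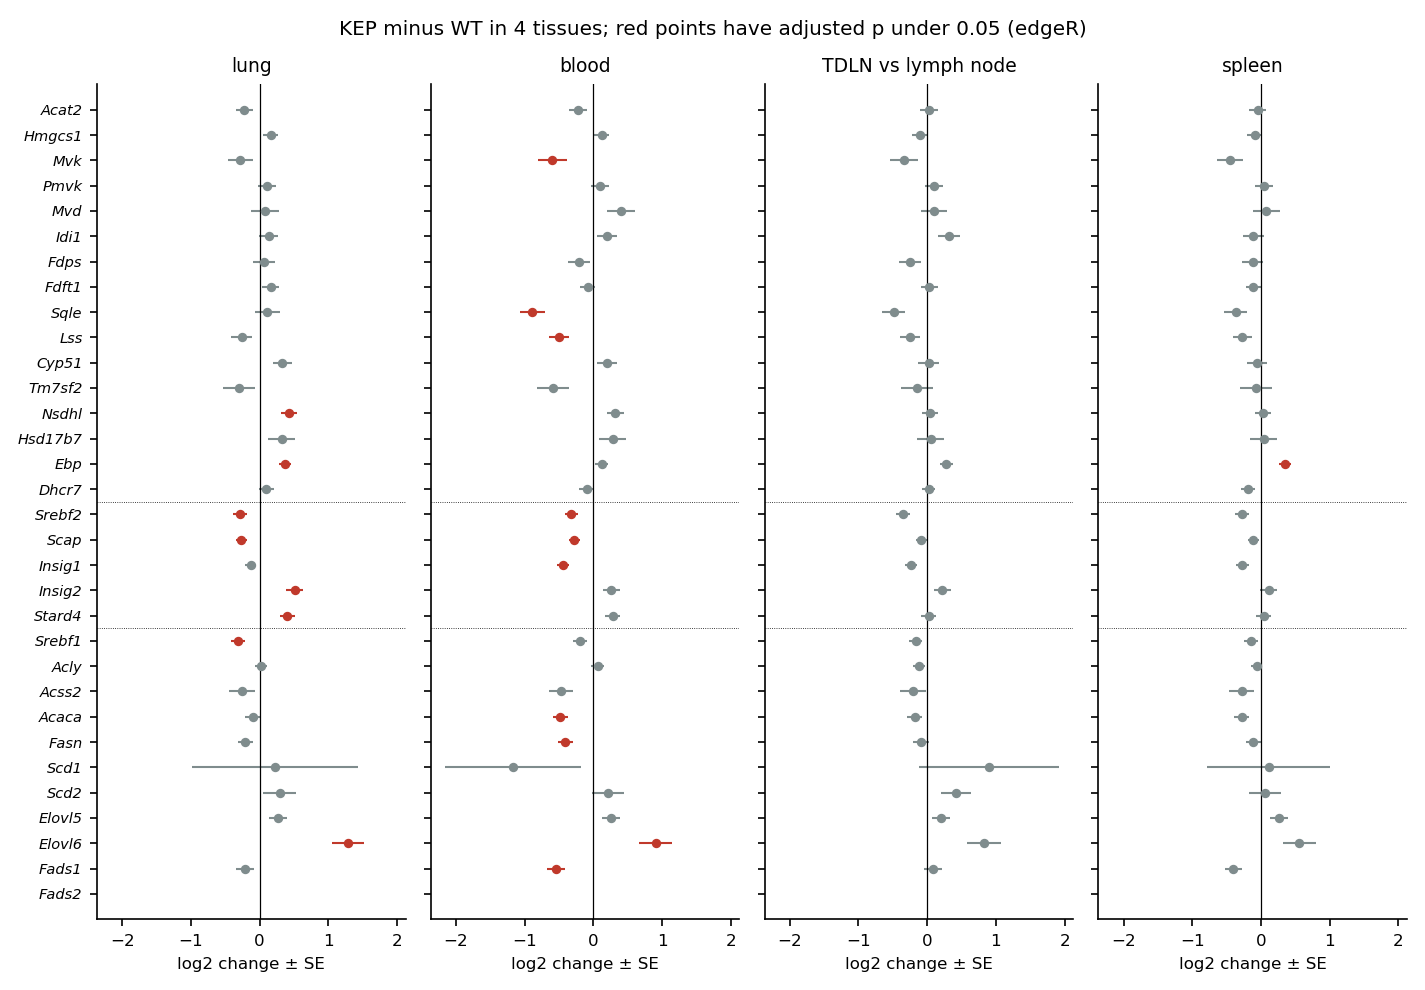
KEP minus WT log2 change ± SE of each gene in lung, blood, lymph node (KEP TDLN against WT lymph node) and spleen, with called genes in red. Elovl6 lies to the right in all 4 panels (1.29 in lung, 0.91 in blood) and most called genes in blood lie to the left. Fads2 had too few counts to test and has no point.

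Tissue comparisons set lung, blood and lymph node against spleen within a genotype. Lung gave the most calls, among members and among all genes. In KEP lung 13 of 31 members were called, 8 higher and 5 lower, beside 48.1% of all genes (23.7% higher and 24.4% lower). In WT lung 15 were called, 6 higher and 9 lower, beside 44.9% (23.1% higher and 21.8% lower). These shares of calls (41.9% in KEP and 48.4% in WT) are near those of all genes. With libraries scaled to the T cell genes, the WT split was 9 higher and 6 lower. The 6 members higher in lung of both genotypes were Insig1, Mvk, Stard4, Cyp51, Idi1 and Elovl5, and the 5 lower in both were Acss2, Dhcr7, Lss, Mvd and Srebf1. These are 11 of the 13 KEP calls and 11 of the 15 WT calls.

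Insig1 had 150.1, 138 and 135 CPM in KEP lung, against 30.98, 35.97 and 38.5 CPM in KEP spleen. Every lung library was several times above every spleen library (log2 change 2.0, SE 0.09, adjusted p = 1.74e-15). In WT it had 146, 153 and 159 CPM in WT lung, against 42.8, 45.3 and 38.8 CPM in WT spleen, again with a wide gap (log2 change 1.85, SE 0.09, adjusted p = 6.99e-15). Mvk had 30.1, 25.4 and 30.7 CPM in KEP lung, against 6.78, 8.05 and 9.28 CPM in KEP spleen. Here too lung was well above spleen (log2 change 1.83, SE 0.19, adjusted p = 1.95e-08). WT showed it too, with 31.02, 37.5 and 35.8 CPM in WT lung, against 10.7, 10.4 and 11.9 CPM in WT spleen (log2 change 1.66, SE 0.19, adjusted p = 8.29e-08). In WT lung the next enzymes of the route gave no such rise. Pmvk, the next kinase, had 10.6, 10.9 and 11.1 CPM in WT lung, against 10.4, 11.4 and 12.5 CPM in WT spleen, and the groups overlapped (log2 change -0.07, SE 0.13, adjusted p = 0.692). Mvd, the decarboxylase after it, had 14.5, 16.8 and 12.8 CPM in WT lung, against 19.4, 22.4 and 20.6 CPM in WT spleen, lower in lung (log2 change -0.51, SE 0.20, adjusted p = 0.0388).

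Stard4 had 125, 104 and 88.4 CPM in KEP lung, against 59.96, 54.3 and 59.8 CPM in KEP spleen. Lung was above spleen in every library (log2 change 0.86, SE 0.11, adjusted p = 5.55e-07), and in WT it had 74.3, 85.4 and 78.7 CPM in WT lung, against 49.2, 56.6 and 63.2 CPM in WT spleen, again apart (log2 change 0.50, SE 0.11, adjusted p = 0.000766). Cyp51, lanosterol demethylase, had 77.2, 52.7 and 47.1 CPM in KEP lung, against 31.6, 30.8 and 31.2 CPM in KEP spleen. KEP lung replicate 1 was the highest, and the groups did not overlap (log2 change 0.91, SE 0.14, adjusted p = 1.05e-05), nor did they in WT (log2 change 0.52, SE 0.15, adjusted p = 0.00484). Idi1 had 30.7, 26.2 and 24.5 CPM in KEP lung, against 16.8, 16.6 and 15.8 CPM in KEP spleen, with all lung values higher (log2 change 0.72, SE 0.15, adjusted p = 0.000220), and WT moved the same way (log2 change 0.48, SE 0.15, adjusted p = 0.00998). Elovl5 had 479.5, 351 and 289 CPM in KEP lung, against 198, 184 and 182 CPM in KEP spleen. KEP lung replicate 1 was again the highest of a group that stood clear of spleen (log2 change 0.98, SE 0.13, adjusted p = 1.99e-06). WT lung had 286, 371 and 267 CPM of Elovl5, against 145, 155 and 170.0 CPM in WT spleen (log2 change 0.98, SE 0.13, adjusted p = 2.54e-06). Elovl6 had 53.4, 52.1 and 23.5 CPM in KEP lung, against 21.2, 18.1 and 14.9 CPM in KEP spleen, with all lung values higher (log2 change 1.25, SE 0.23, adjusted p = 9.75e-05). In WT it was not called (log2 change 0.51, SE 0.24, adjusted p = 0.0939), and the difference between the genotypes was not called either (adjusted p = 0.636).

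**Figure D3:**
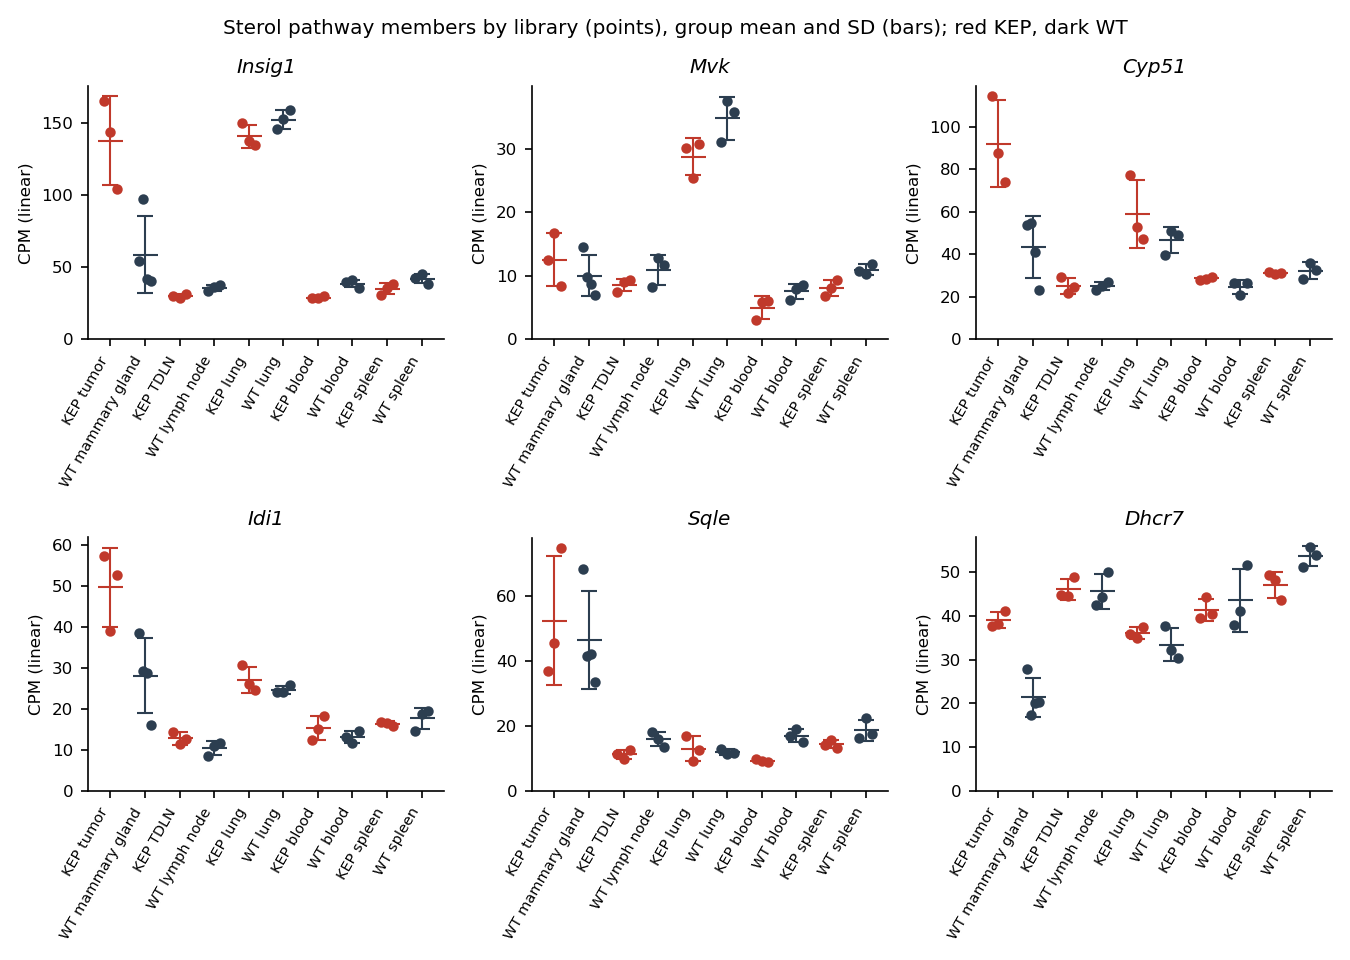
CPM of Insig1, Mvk, Cyp51, Idi1, Sqle and Dhcr7 in each library (points) with group mean and SD (bars), KEP in red beside WT in dark for each tissue. Insig1 lies between 135 and 159 CPM in the 6 lung libraries and between 28.7 and 45.3 CPM in blood, lymph node and spleen, while Mvk was called higher in lung and was not called in tumor.

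Of the members lower in lung, Srebf1 had 81.1, 96.1 and 98.6 CPM in KEP lung, against 136, 143 and 129 CPM in KEP spleen, with all lung libraries lower (log2 change -0.57, SE 0.10, adjusted p = 3.08e-05). In WT it had 111, 106 and 122 CPM in WT lung, against 158, 152 and 140.1 CPM in WT spleen, also apart (log2 change -0.41, SE 0.10, adjusted p = 0.00136). Acss2 had 8.09, 8.50 and 9.62 CPM in KEP lung, against 9.88, 15.3 and 11.5 CPM in KEP spleen. The groups came close without crossing (log2 change -0.49, SE 0.19, adjusted p = 0.0338). WT lung had 9.42, 10.1 and 11.3 CPM of Acss2, against 13.4, 14.99 and 16.1 CPM in WT spleen, again without overlap (log2 change -0.53, SE 0.19, adjusted p = 0.0251). Dhcr7 was lower in KEP lung (log2 change -0.39, SE 0.10, adjusted p = 0.00322). In WT it had 37.8, 32.2 and 30.5 CPM in WT lung, against 51.3, 55.8 and 53.9 CPM in WT spleen, each lung value below each spleen value (log2 change -0.68, SE 0.11, adjusted p = 1.10e-05). Lss was lower in KEP lung (log2 change -0.71, SE 0.15, adjusted p = 0.000341), and in WT it had 19.4, 18.7 and 16.6 CPM in WT lung, against 30.6, 28.1 and 31.1 CPM in WT spleen. No values crossed there (log2 change -0.71, SE 0.15, adjusted p = 0.000341). Mvd was lower in KEP lung as well (log2 change -0.50, SE 0.19, adjusted p = 0.0320).

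Hsd17b7, a ketone reductase of sterol demethylation, was called in KEP lung and not in WT lung, with overlap between lung and spleen (log2 change 0.61, SE 0.20, adjusted p = 0.0134). Fads1, Sqle, Fdft1 and Nsdhl were called in WT lung and not in KEP lung. Of these Fads1 had 26.3, 23.1 and 22.4 CPM in WT lung, against 35.4, 32.3 and 33.8 CPM in WT spleen. The WT groups did not overlap (log2 change -0.50, SE 0.13, adjusted p = 0.00305). Sqle (-0.64, adjusted p = 0.00405), the squalene synthase gene Fdft1 (-0.50, adjusted p = 0.00103) and Nsdhl (-0.35, adjusted p = 0.0225) were lower too. No difference between the genotypes was called for these 5 genes. The count of calls stayed between 10 and 12 in KEP and between 12 and 15 in WT when any single library was left out.

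Other lipid genes were also called in lung. Cd36, a fatty acid receptor that other cell types also express, had 9.01, 22.99 and 3.89 CPM in KEP lung, against 0.754, 0.452 and 0.234 CPM in KEP spleen, and in WT it had 11.96, 9.88 and 10.3 CPM in WT lung, against 0.188, 0.428 and 0.0747 CPM in WT spleen. Spleen held 3 to 9 counts of it per library in KEP and 1 to 5 in WT, so no fold is given. Cpt2, a mitochondrial carnitine transferase, was lower in KEP (-1.26, adjusted p = 4.29e-07) and in WT (-1.8, adjusted p = 3.92e-09). Fabp5, a fatty acid carrier, was higher in KEP (0.79, adjusted p = 0.00399) and in WT (1.0, adjusted p = 0.000783). Ppard was lower in KEP (-0.37, adjusted p = 0.000927) and Acadm higher in WT (0.39, adjusted p = 0.00588). In all, 6 of 14 tested uptake and oxidation genes were higher and 3 lower in KEP lung, against 3 and 3 in WT lung. Of 12 efflux, storage and LXR genes 2 were higher and 1 lower in each genotype. The ligase gene Mylip, an LXR target, was higher in KEP (0.58, adjusted p = 0.00580) and in WT (0.48, adjusted p = 0.0203). Soat2, which also esterifies cholesterol, was lower in KEP (-2.09, adjusted p = 0.00254) and in WT (-2.14, adjusted p = 0.00153). Npc1, a lysosomal cholesterol transporter, was higher in KEP (0.48, adjusted p = 8.29e-05) and Nr1h2 in WT (0.22, adjusted p = 0.0265). Of 8 isoprenoid genes 4 were lower in KEP, with Fntb at -0.64, Coq2 at -0.38, Ggps1 at -0.29 and Fnta at -0.23. In WT 3 were lower, with Ggps1 at -0.58, Pggt1b at -0.46 and Fntb at -0.48. Of the late sterol enzymes Sc5d was higher (0.36) and Msmo1 lower (-0.30) in KEP, and Msmo1 was lower in WT (-0.47). Macrophage markers were at 38.3, 57.9 and 79.01 CPM in KEP lung, against 27.2, 16.4 and 36.04 CPM in KEP spleen, and at 123, 96.9 and 166 CPM in WT lung, against 12.5, 9.59 and 8.52 CPM in WT spleen. These sums hide a mixed list of 7 genes. In KEP 2 were called higher and 3 lower in lung (median log2 change -0.99), and in WT 3 higher and 2 lower (median 0.6). Lung epithelial markers (4 genes) stayed under 20 CPM in every lung library. The part of these cells in the lung values was not tested.

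Blood against spleen gave 9 calls of 31 in KEP, 3 higher and 6 lower, beside 24.6% of all genes (12.3% higher and 12.2% lower). In WT 7 were called, 2 higher and 5 lower, beside 25.5% (13.8% higher and 11.8% lower). Scaled to the T cell genes the splits were 4 higher and 4 lower in KEP and 2 higher and 2 lower in WT. With title date as a block, the WT calls numbered 11. Ebp and Elovl5 were higher and Lss lower in blood of both genotypes, 3 of 9 KEP calls and 3 of 7 WT calls.

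Lss had 13.3, 14.5 and 14.1 CPM in KEP blood, against 25.7, 23.9 and 24.97 CPM in KEP spleen. Blood was lower throughout (log2 change -0.85, SE 0.15, adjusted p = 0.000206). WT blood had 20.8, 14.9 and 22.6 CPM of Lss, against 30.6, 28.1 and 31.1 CPM in WT spleen (log2 change -0.61, SE 0.15, adjusted p = 0.00347). Ebp had 82.1, 85.5 and 82.4 CPM in KEP blood, against 66.3, 58.1 and 72.2 CPM in KEP spleen, with all blood values above spleen (log2 change 0.33, SE 0.09, adjusted p = 0.00925). In WT it had 72.5, 81.2 and 73.8 CPM in WT blood, against 51.6, 48.99 and 53.9 CPM in WT spleen, again apart (log2 change 0.56, SE 0.09, adjusted p = 8.78e-05). Elovl5 had 290.1, 253 and 246 CPM in KEP blood, against 198, 184 and 182 CPM in KEP spleen, likewise apart (log2 change 0.47, SE 0.13, adjusted p = 0.0119). WT blood had 222, 226 and 203 CPM of Elovl5, against 145, 155 and 170.0 CPM in WT spleen (log2 change 0.48, SE 0.13, adjusted p = 0.0111). These 3 genes had blood and spleen values that did not cross in either genotype, as did 42.7% of all genes in KEP and 36.7% in WT.

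Other calls came from KEP blood. Sqle had 9.71, 9.22 and 8.93 CPM in KEP blood, against 14.2, 15.7 and 13.3 CPM in KEP spleen. No blood library reached spleen (log2 change -0.65, SE 0.18, adjusted p = 0.00841). Acaca had 28.4, 28.6 and 29.5 CPM in KEP blood, against 41.4, 38.7 and 35.6 CPM in KEP spleen, also without overlap (log2 change -0.43, SE 0.11, adjusted p = 0.00600). Mvk had 3.03, 5.97 and 6.09 CPM in KEP blood, against 6.78, 8.05 and 9.28 CPM in KEP spleen, and KEP blood replicate 1 was the lowest (log2 change -0.68, SE 0.21, adjusted p = 0.0193). Insig1 had 28.7, 28.7 and 29.9 CPM in KEP blood, against 30.98, 35.97 and 38.5 CPM in KEP spleen, lower without overlap (log2 change -0.29, SE 0.09, adjusted p = 0.0229). Fads1 had 15.97, 24.7 and 19.1 CPM in KEP blood, against 24.4, 27.3 and 25.1 CPM in KEP spleen. The groups overlapped through KEP blood replicate 2 (log2 change -0.37, SE 0.13, adjusted p = 0.0387). Elovl6 had 35.2, 28.2 and 21.5 CPM in KEP blood, against 21.2, 18.1 and 14.9 CPM in KEP spleen, with every blood value the higher (log2 change 0.63, SE 0.23, adjusted p = 0.0467). The KEP count was 5 without KEP blood replicate 1, KEP spleen replicate 2 or KEP spleen replicate 3.

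In WT blood Hmgcs1, which makes HMG-CoA, had 36.3, 35.6 and 33.6 CPM, against 39.5, 49.5 and 48.2 CPM in WT spleen. Every blood value was lower (log2 change -0.37, SE 0.11, adjusted p = 0.0122). Idi1 had 13.1, 11.8 and 14.7 CPM in WT blood, against 14.7, 18.8 and 19.5 CPM in WT spleen, lower without overlap (log2 change -0.42, SE 0.15, adjusted p = 0.0443). Dhcr7 had 37.96, 41.1 and 51.6 CPM in WT blood, against 51.3, 55.8 and 53.9 CPM in WT spleen, and Acly had 258, 278 and 318 CPM in WT blood, against 312, 357 and 367 CPM in WT spleen. Both were lower with overlapping values (log2 change -0.29, SE 0.10, adjusted p = 0.0383 for Dhcr7 and log2 change -0.27, SE 0.09, adjusted p = 0.0203 for Acly). The WT count was 4 without WT blood replicate 1, WT blood replicate 2 or WT spleen replicate 3, and 3 without WT spleen replicate 2. Red cell markers (4 genes) summed to 1778, 4058 and 3622 CPM in KEP blood, against 217, 502 and 64.2 CPM in KEP spleen, and to 7361, 2811 and 1783 CPM in WT blood, against 235, 23.2 and 134 CPM in WT spleen. Their part in the blood values was not tested.

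Among related genes Soat1 was higher in blood of KEP (0.41, adjusted p = 0.00166) and WT (0.28, adjusted p = 0.0257), and Fntb lower in both (-0.84, adjusted p = 0.00191 in KEP and -0.77, adjusted p = 0.00338 in WT). Nceh1 (0.46, adjusted p = 0.00462) and Npc1 (0.26, adjusted p = 0.0368) completed 3 higher calls among 12 efflux, storage and LXR genes in KEP. Coq2 was lower (-0.51, adjusted p = 0.00290) and Sc5d higher (0.31, adjusted p = 0.0413) in KEP, and Rabggta was higher in WT (0.32, adjusted p = 0.0129). Of 14 tested uptake and oxidation genes, Ppard was lower in KEP (-0.30, adjusted p = 0.0131) and WT (-0.36, adjusted p = 0.00321), and in WT Acadvl was lower (-0.39, adjusted p = 0.00728) and Cd36 higher, though it had 1 to 5 counts per library in WT spleen.

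Lymph node against spleen was led by Scd2, another stearoyl-CoA desaturase. It had 160.3, 146 and 157 CPM in KEP TDLN, against 60.5, 77.9 and 42.8 CPM in KEP spleen. Every TDLN library was well above every spleen library (log2 change 1.37, SE 0.23, adjusted p = 0.000802). In WT it had 101, 133 and 115 CPM in WT lymph node, against 57.8, 55.5 and 60.8 CPM in WT spleen, also apart (log2 change 1.01, SE 0.23, adjusted p = 0.00822). KEP TDLN gave 1 higher and 2 lower calls of 31, beside 11.1% of all genes (5.35% higher and 5.72% lower). WT lymph node gave 1 higher and 4 lower, beside 8.97% (4.56% higher and 4.41% lower). With title date as a block the calls numbered 6 in KEP and 8 in WT, and scaled to the T cell genes the KEP split was 1 higher and 1 lower.

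Hmgcs1 had 32.9, 33.5 and 32.2 CPM in KEP TDLN, against 43.2, 46.5 and 39.6 CPM in KEP spleen. Lymph node was lower in each library (log2 change -0.38, SE 0.11, adjusted p = 0.0212), and in WT it had 33.3, 34.8 and 38.3 CPM in WT lymph node, against 39.5, 49.5 and 48.2 CPM in WT spleen, also lower (log2 change -0.36, SE 0.11, adjusted p = 0.0335). Srebf2 had 215, 259.6 and 238 CPM in KEP TDLN, against 283, 308 and 307 CPM in KEP spleen, with no overlap (log2 change -0.32, SE 0.10, adjusted p = 0.0430). In WT, Idi1 had 8.48, 11.1 and 11.6 CPM in WT lymph node, against 14.7, 18.8 and 19.5 CPM in WT spleen. All lymph node values were lower (log2 change -0.76, SE 0.15, adjusted p = 0.00175). Fads1 had 25.2, 23.04 and 24.4 CPM in WT lymph node, against 35.4, 32.3 and 33.8 CPM in WT spleen, apart as well (log2 change -0.47, SE 0.13, adjusted p = 0.0196). Fdft1 had 20.6, 23.4 and 26.1 CPM in WT lymph node, against 29.9, 30.9 and 32.4 CPM in WT spleen, with no overlap (log2 change -0.41, SE 0.11, adjusted p = 0.0245). The KEP count was 1 without KEP TDLN replicate 1, KEP TDLN replicate 3, KEP spleen replicate 1 or KEP spleen replicate 2, and 2 without KEP spleen replicate 3. The WT count was 3 without WT lymph node replicate 1 or WT spleen replicate 2, and 2 without WT lymph node replicate 2. Scd2 kept its call in both genotypes whichever library was left out. Red cell markers summed to 2.84, 0.842 and 1.32 CPM in KEP TDLN, against 217, 502 and 64.2 CPM in KEP spleen, and to 3.66, 5.43 and 5.21 CPM in WT lymph node, against 235, 23.2 and 134 CPM in WT spleen. B cell markers (4 genes) stood at 30.2, 22.9 and 23.2 CPM in KEP TDLN, against 67.5, 23.9 and 36.8 CPM in KEP spleen, and at 15.1, 15.8 and 11.7 CPM in WT lymph node, against 42.2, 39.3 and 21.4 CPM in WT spleen. Dendritic markers (4 genes) were at 4.36 CPM or less in every lymph node library and at 0.942 CPM or less in every spleen library. The part of these cells in the lymph node calls was not tested.

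Of 12 efflux, storage and LXR genes, Abcg1, a cholesterol exporter, was higher in KEP TDLN (0.73, adjusted p = 0.000327) and in WT lymph node (0.56, adjusted p = 0.00377). Soat2 was lower in KEP (-3.54, adjusted p = 0.000575) and in WT (-4.93, adjusted p = 2.72e-05). In KEP Abca1, another exporter, was higher (1.35, adjusted p = 0.0116) and Nr1h2 lower (-0.26, adjusted p = 0.0406). Of the other late sterol enzymes Sc5d was lower in WT (-0.36, adjusted p = 0.0465). Fabp5 was the 1 call among 14 tested uptake and oxidation genes in each genotype, higher in KEP (0.82, adjusted p = 0.0145) and in WT (0.81, adjusted p = 0.0216).

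Libraries of tumor Tregs had higher levels of many sterol enzymes than those of the lymph node that drains the tumor or of the spleen. Against KEP TDLN, 13 of 32 members rose and 0 fell, 40.6%, beside 44.7% of all 12903 genes tested (26.5% higher and 18.3% lower). The share of members called is near that of all genes. Of the 16 sterol enzymes 8 rose, from Hmgcs1 near the start to Hsd17b7 near the end, of the regulators Insig1, and of the 11 fatty acid genes 4. The medians of the 3 lists were 0.62, 0.33 and 0.77, beside 0.04 for all genes. Against KEP spleen 14 rose and 1 fell, beside 46.8% of 12927 genes (26.9% higher and 19.9% lower). Scaling to the T cell genes moved the median of all genes to 0.83 against TDLN and 0.93 against spleen, and left 12 and 13 members higher and 0 lower. Of all genes, 3377 of 12903 and 3723 of 12927 were called with that scaling. The summed CPM of the 16 enzymes was 639, 574 and 627 in KEP tumor, against 357, 330.5 and 348 in KEP TDLN and 405, 393 and 409.6 in KEP spleen.

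At the start of the route, Hmgcs1 had 71.2, 81.7 and 77.5 CPM in KEP tumor, against 32.9, 33.5 and 32.2 CPM in KEP TDLN. The tumor values lay close together and above TDLN (log2 change 1.27, SE 0.10, adjusted p = 0.00113). KEP spleen had 43.2, 46.5 and 39.6 CPM, also lower than tumor (log2 change 0.85, SE 0.11, adjusted p = 0.00307). Idi1 had 57.3, 38.9 and 52.8 CPM in KEP tumor, against 14.5, 11.4 and 12.6 CPM in KEP TDLN. Even the lowest tumor library, replicate 2, was far above TDLN (log2 change 2.01, SE 0.20, adjusted p = 0.00169). In KEP spleen Idi1 was at 16.8, 16.6 and 15.8 CPM, again below all tumor libraries (log2 change 1.62, SE 0.19, adjusted p = 0.00231). Fdps, which makes farnesyl diphosphate, had 40.6, 37.9 and 47.4 CPM in KEP tumor, against 15.3, 15.8 and 13.7 CPM in KEP TDLN, with no overlap (log2 change 1.54, SE 0.15, adjusted p = 0.00161), and KEP spleen had 20.3, 21.5 and 19.7 CPM (log2 change 1.06, SE 0.14, adjusted p = 0.00335). Pmvk rose against TDLN (log2 change 0.77, SE 0.19, adjusted p = 0.0176) and spleen (log2 change 0.72, SE 0.18, adjusted p = 0.0190). Mvk and Mvd, the kinase and the decarboxylase on either side of it, were not called, with log2 changes of 0.59 and 0.10 against TDLN and 0.66 and -0.26 against spleen. Acat2, at the start, had 0.25 against TDLN and 0.18 against spleen, neither called.

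After squalene, Sqle had 36.7, 45.4 and 74.5 CPM in KEP tumor, against 11.4, 9.86 and 12.6 CPM in KEP TDLN. Tumor replicate 3 was the highest, and the groups were well apart (log2 change 2.26, SE 0.30, adjusted p = 0.00310), as they were from spleen (log2 change 1.88, SE 0.29, adjusted p = 0.00450). Cyp51 had 114, 87.4 and 74.2 CPM in KEP tumor, against 29.2, 21.9 and 24.5 CPM in KEP TDLN. Here replicate 1 was the highest (log2 change 1.92, SE 0.20, adjusted p = 0.00182). KEP spleen had 31.6, 30.8 and 31.2 CPM, below all tumor libraries (log2 change 1.58, SE 0.18, adjusted p = 0.00228). Hsd17b7 rose against TDLN (1.46, adjusted p = 0.00886) and spleen (1.17, adjusted p = 0.0227), and Fdft1 against TDLN (0.64, adjusted p = 0.0107). Lss, Tm7sf2, Nsdhl, Ebp and Dhcr7 were not called against TDLN, with log2 changes of 0.31, -0.36, 0.24, -0.08 and -0.19. Other late enzymes rose too, and Sc5d, a desaturase, had 99.1, 51.02 and 70.01 CPM in KEP tumor, against 29.2, 35.2 and 28.1 CPM in KEP TDLN (log2 change 1.3, SE 0.27, adjusted p = 0.0110). Msmo1 had a change of 1.11 (adjusted p = 0.00667).

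Insig1 had 166, 144 and 104 CPM in KEP tumor, against 30.2, 28.8 and 31.7 CPM in KEP TDLN. Tumor replicate 1 was the highest and replicate 3 the lowest, and all were several times above TDLN (log2 change 2.23, SE 0.19, adjusted p = 0.00121). KEP spleen had 30.98, 35.97 and 38.5 CPM, likewise far below tumor (log2 change 1.99, SE 0.20, adjusted p = 0.00185). Insig2 had log2 changes of 0.32 against TDLN, not called, and 0.45 against spleen, called. Srebf2 (0.33 and -0.03), Scap (-0.22 and -0.33) and Stard4 (0.50 and 0.38) were called in neither. Tumor was not tested against lung. Mean CPM per kb in KEP tumor and KEP lung were near each other for Insig1 (44.6 and 45.5) and the fatty acid gene Elovl6 (7.14 and 6.69). They were higher in tumor for Cyp51 (20.8 and 13.4), Idi1 (14.2 and 7.74), Hsd17b7 (10.1 and 6.95) and Sqle (9.42 and 2.34).

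Among the fatty acid genes, Elovl6 had 34.8, 39.4 and 63.6 CPM in KEP tumor, against 15.8, 14.5 and 13.1 CPM in KEP TDLN. Tumor was above TDLN in every library (log2 change 1.72, SE 0.26, adjusted p = 0.00444), and above KEP spleen, which had 21.2, 18.1 and 14.9 CPM (log2 change 1.37, SE 0.28, adjusted p = 0.0103). Scd1 had 19.5, 71.3 and 298 CPM in KEP tumor, against 3.99, 2.69 and 1.32 CPM in KEP TDLN. The tumor libraries differed widely among themselves and all lay above TDLN (log2 change 5.65, SE 1.15, adjusted p = 0.0103). KEP spleen had 10.9, 2.11 and 2.42 CPM (log2 change 4.69, SE 1.23, adjusted p = 0.0235). Fads1 had 34.3, 93.2 and 77.3 CPM in KEP tumor, against 27.7, 26.7 and 22.1 CPM in KEP TDLN, with replicate 1 the lowest (log2 change 1.46, SE 0.36, adjusted p = 0.0185), and KEP spleen had 24.4, 27.3 and 25.1 CPM (log2 change 1.43, SE 0.35, adjusted p = 0.0188). Fads2 had 4.52, 14.4 and 31.6 CPM in KEP tumor, against 0 to 1 counts per library in KEP TDLN and in KEP spleen, and no fold is given. Every tumor library was above all of them. Scd2 was called against spleen and not against TDLN (0.44), with 93.95, 193 and 319 CPM in KEP tumor, against 60.5, 77.9 and 42.8 CPM in KEP spleen (log2 change 1.77, SE 0.47, adjusted p = 0.0245). Acss2 was lower against spleen, with 5.11, 4.80 and 7.80 CPM in KEP tumor, against 9.88, 15.3 and 11.5 CPM in KEP spleen and no overlap (log2 change -1.02, SE 0.31, adjusted p = 0.0375). Srebf1, Acly, Acaca, Fasn and Elovl5 were not called in either comparison.

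Genes of other cells stood beside these tumor values. Stromal and endothelial markers (6 genes) summed to 2776, 6234 and 7046 CPM in KEP tumor, against 175, 213 and 185 CPM in KEP TDLN. Macrophage markers summed to 728, 5056 and 1080 CPM in KEP tumor, against 16.2, 20.1 and 17.03 CPM in KEP TDLN, and epithelial markers (8 genes) to 165, 193 and 2000 CPM in KEP tumor, against 17.8, 19.1 and 19.6 CPM in KEP TDLN. Tumor replicate 1 had the fullest T cell signal, with a T cell gene sum of 104% of the WT spleen mean and a Treg marker sum of 10610 CPM. Of the 16 sterol enzymes, that library had the highest value of the 3 tumor libraries for 8, Idi1 and Cyp51 among them, and the lowest for 5, Hmgcs1 and Sqle among them. Of the 11 fatty acid genes it had the highest value for 1, Elovl5, and the lowest for 8, Scd1, Fads1 and Fads2 among them. These orders of libraries were not counted over all genes. Proliferation genes (12 genes) summed to 901, 721 and 810.5 CPM in KEP tumor. They summed to 1014, 320 and 407 CPM in KEP TDLN and to 644, 356 and 307 CPM in KEP spleen. Of them 1 was called higher in tumor against TDLN and 6 against spleen, and 0 lower in either. What part the other cells or proliferation have in the tumor values was not tested.

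The calls against spleen numbered 9 without KEP spleen replicate 1, 8 without replicate 2 and 8 without replicate 3. Against TDLN they stayed between 10 and 17. With title date as a block, 11 members were called against spleen, without Insig2, Scd1, Acss2 and Pmvk. Of 12 efflux, storage and LXR genes, Abcg1 was lower against TDLN (-1.68, adjusted p = 0.00226), and Soat1 (0.72, adjusted p = 0.00918), the lipoprotein receptor Scarb1 (2.48, adjusted p = 0.00774) and Nr1h3 (1.68, adjusted p = 0.0416), which encodes LXRα, were higher. Against spleen 4 rose and 2 fell, among them Soat2 (-3.2, adjusted p = 0.00435), Abcg1 (-0.99, adjusted p = 0.00771), Scarb1 (2.5, adjusted p = 0.00778) and Soat1 (0.66, adjusted p = 0.0130). Of 8 isoprenoid genes, Ggps1 (-0.51, adjusted p = 0.0229) and Fnta (-0.45, adjusted p = 0.0467) were lower against TDLN, and Ggps1 (-0.53, adjusted p = 0.0121) and Rabggta (-0.60, adjusted p = 0.0281) against spleen. Of 15 tested uptake and oxidation genes 7 rose and 1 fell. Fabp4, a fatty acid carrier, had 10.8, 39.4 and 33.6 CPM in KEP tumor, against 0.271, 0.0842 and 0.165 CPM in KEP TDLN, and Cd36 had 8.54, 44.4 and 25.4 CPM in KEP tumor, against 0.203, 0.253 and 0.0823 CPM in KEP TDLN. Both are also known from endothelium, macrophages and adipocytes. Fabp5 (2.21, adjusted p = 0.00421) and Ppard (0.87, adjusted p = 0.00355) rose too. Against spleen 6 of 15 rose and 1 fell, Fabp5 (2.98, adjusted p = 0.00194) and Slc27a1 (1.7, adjusted p = 0.00444) among those higher. Msmo1 (0.83, adjusted p = 0.0134) and Sc5d (1.18, adjusted p = 0.0131) were also higher against spleen.

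**Figure D4:**
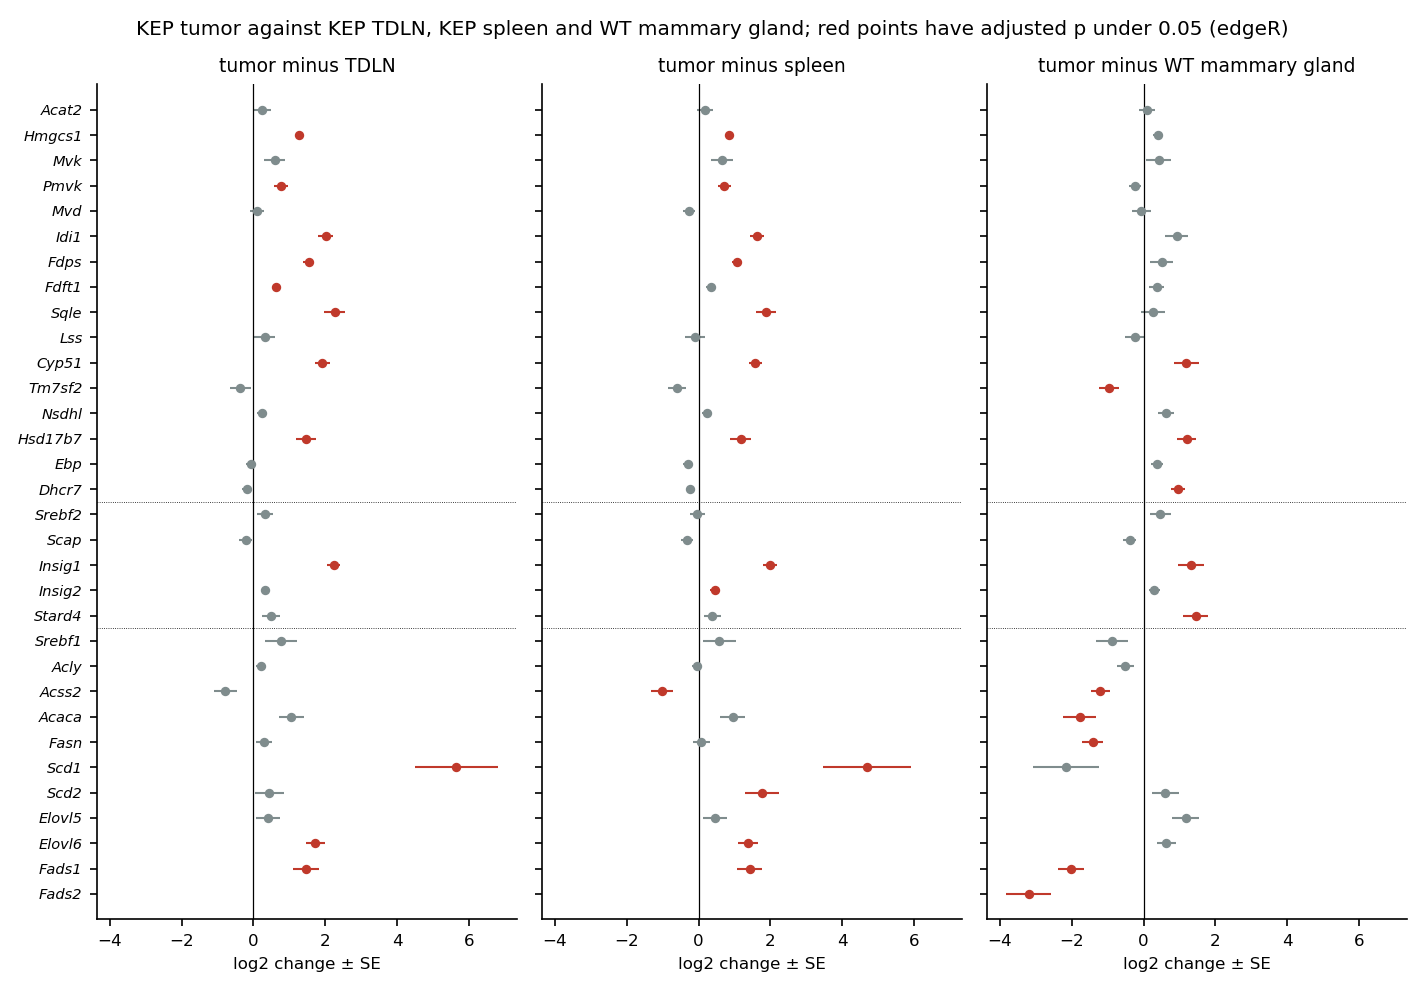
Log2 change ± SE of each gene in KEP tumor against KEP TDLN, KEP spleen and WT mammary gland, with called genes in red. Insig1 lies at 2.23, 1.99 and 1.33 in the 3 panels, and the red fatty acid genes lie to the right against TDLN and spleen (Acss2 excepted) and to the left against mammary gland, where scaling to the T cell genes turned the sign of all 5 higher calls, of which Dhcr7 was then called lower. Fads2 is not drawn against TDLN or spleen, where it had 0 to 1 counts per library.

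KEP tumor was also set against WT mammary gland, the tissue in which these tumors arise. Every KEP tumor library came from at least as many sorted cells as any WT mammary gland library. The part of cell number in this comparison was not tested. Relative to all RNA in a library, sterol genes gave 5 higher calls, Dhcr7, Hsd17b7, Cyp51, Insig1 and Stard4, and 1 lower, Tm7sf2, while fatty acid genes gave 5 lower calls of 11 and 0 higher. In all 11 of 32 members were called, 34.4%, beside 25.2% of 14538 genes (11.2% higher and 14% lower). The list medians were 0.38 for the enzymes, 0.47 for the regulators and -1.20 for the fatty acid genes, beside -0.01 for all genes. Scaling to the T cell genes moved the median of all genes to -3.33 and left 0 members higher and 26 lower, beside 12269 of the 14538 genes called. The sign of the 5 higher calls turned with the scaling. Of these Dhcr7 was called lower and the other 4 were not called, while the 6 lower calls kept their direction.

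Insig1 had 166, 144 and 104 CPM in KEP tumor, against 54.2, 97.6, 42.1 and 40.6 CPM in WT mammary gland. All tumor libraries were above all mammary gland libraries, though tumor replicate 3 only just (log2 change 1.33, SE 0.36, adjusted p = 0.0346). Stard4 had 99.2, 72.9 and 50.9 CPM in KEP tumor, against 35.2, 38.7, 23.2 and 19.5 CPM in WT mammary gland, with no overlap (log2 change 1.45, SE 0.34, adjusted p = 0.0235). Dhcr7 had 37.7, 38.2 and 41.1 CPM in KEP tumor, against 27.8, 17.4, 20.2 and 20.4 CPM in WT mammary gland. The tumor values were tight and higher (log2 change 0.96, SE 0.20, adjusted p = 0.0168). Hsd17b7 had 70.2, 38.8 and 45.5 CPM in KEP tumor, against 29.5, 24.3, 22.2 and 20.4 CPM in WT mammary gland, also apart (log2 change 1.2, SE 0.27, adjusted p = 0.0199). Cyp51 had 114, 87.4 and 74.2 CPM in KEP tumor, against 53.8, 54.6, 41.3 and 23.4 CPM in WT mammary gland. Again every tumor value was the higher (log2 change 1.19, SE 0.34, adjusted p = 0.0405). Tm7sf2 had 4.52, 3.82 and 4.43 CPM in KEP tumor, against 8.23, 11.6, 8.49 and 7.29 CPM in WT mammary gland, lower without overlap (log2 change -0.96, SE 0.28, adjusted p = 0.0431), and it lost its call whichever library was left out.

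Fasn had 192, 204 and 299.7 CPM in KEP tumor, against 916, 469, 616 and 638 CPM in WT mammary gland. No tumor library reached mammary gland (log2 change -1.42, SE 0.29, adjusted p = 0.0160). Fads1 had 34.3, 93.2 and 77.3 CPM in KEP tumor, against 308, 218, 272 and 377 CPM in WT mammary gland, far apart (log2 change -2.02, SE 0.36, adjusted p = 0.0107). Fads2 had 4.52, 14.4 and 31.6 CPM in KEP tumor, against 193, 115, 167 and 179 CPM in WT mammary gland. The tumor libraries were all lower, and replicate 1 the lowest (log2 change -3.2, SE 0.62, adjusted p = 0.0135). Acaca had 48.01, 55.5 and 117 CPM in KEP tumor, against 305, 136, 246 and 389.9 CPM in WT mammary gland, without overlap although tumor replicate 3 came near mammary gland replicate 2 (log2 change -1.78, SE 0.45, adjusted p = 0.0283). Acss2 had 5.11, 4.80 and 7.80 CPM in KEP tumor, against 13.9, 12.5, 13.5 and 18.1 CPM in WT mammary gland. It too was lower in every tumor library (log2 change -1.2, SE 0.27, adjusted p = 0.0199). Scd1 had 19.5, 71.3 and 298 CPM in KEP tumor, against 555, 217, 649.9 and 1016 CPM in WT mammary gland. The groups overlapped through tumor replicate 3 and mammary gland replicate 2, and it was not called (log2 change -2.15, SE 0.92, adjusted p = 0.123). Srebf1 was likewise not called (-0.88), nor was Acly (-0.51).

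The mammary gland libraries carried much RNA of milk-producing epithelium. Milk protein genes (5 genes, caseins and whey proteins) summed to 20.8, 2.58 and 4912 CPM in KEP tumor, against 14670, 5217, 15820 and 29270 CPM in WT mammary gland, and epithelial markers to 165, 193 and 2000 CPM in KEP tumor, against 5363, 4898, 6016 and 6573 CPM in WT mammary gland. Adipocyte markers (6 genes) stood at 0.385 CPM or less in KEP tumor, with Plin1, Cidec, Lep and Cfd at 0, against 22.7, 36.9, 25.9 and 53.6 CPM in WT mammary gland. The library with the most T cell RNA among the 4, mammary gland replicate 2, had the lowest value of its group for 8 of the 11 fatty acid genes and for 5 of the 16 sterol enzymes. Among tumor libraries, replicate 3 had the most milk and epithelial RNA, and the highest value for 9 of the 11 fatty acid genes and for 6 of the 16 sterol enzymes. The part of epithelial RNA in the fatty acid values was not tested.

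**Figure D5:**
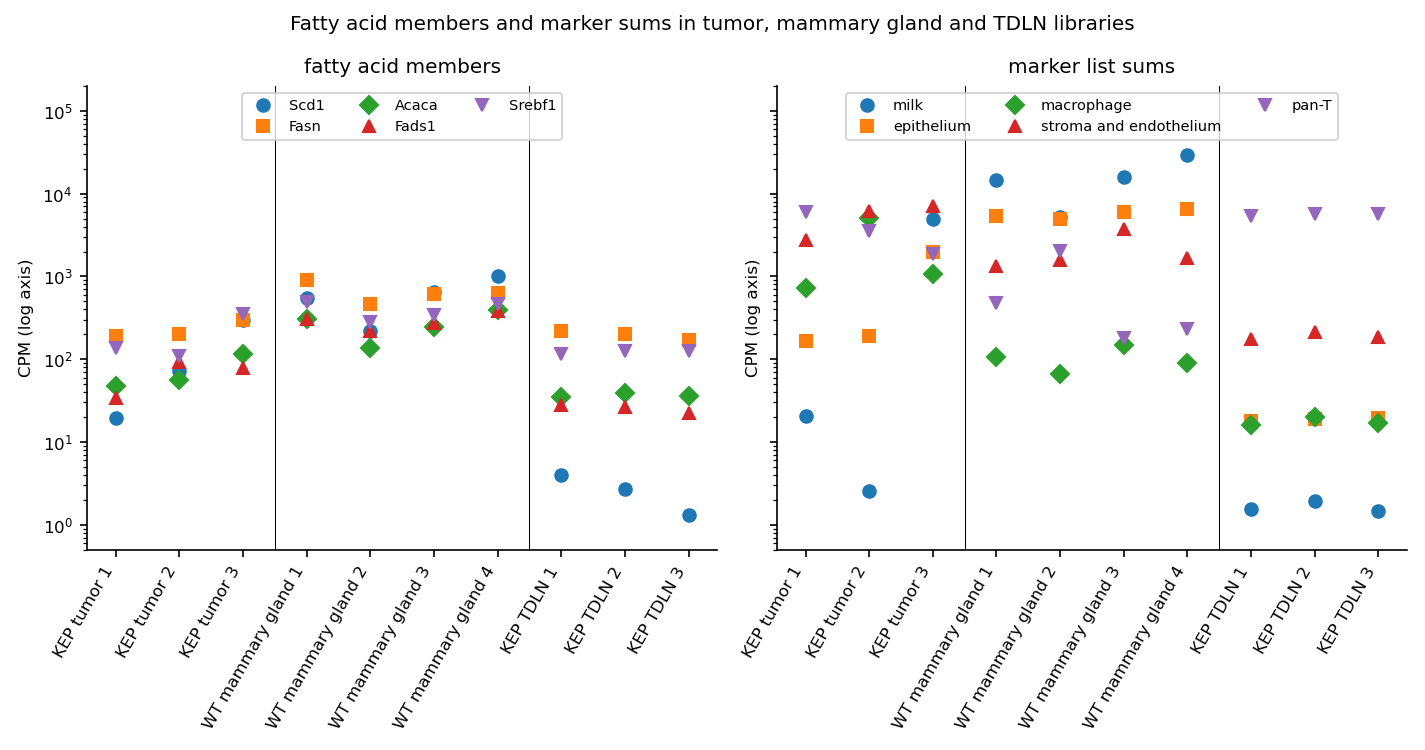
CPM on a log axis of Scd1, Fasn, Acaca, Fads1 and Srebf1 (left) and summed CPM of milk, epithelial, macrophage, stromal and T cell marker genes (right) in each KEP tumor, WT mammary gland and KEP TDLN library. Milk gene sums run from 2.58 to 4912 CPM in KEP tumor and from 5217 to 29270 CPM in WT mammary gland, and Scd1 is highest in tumor replicate 3 and in mammary gland replicate 4.

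The calls against mammary gland leaned on single libraries. Their count was 6 without tumor replicate 1, 4 without tumor replicate 2, and 5, 3 and 3 without mammary gland replicate 1, 3 and 4, and 12 without tumor replicate 3 or mammary gland replicate 2. Of 12 efflux, storage and LXR genes 3 rose, Nceh1 (1.75, adjusted p = 0.00427), Soat1 (2.33, adjusted p = 0.00546) and Npc2 (1.51, adjusted p = 0.0117), and 2 fell, Scarb1 (-1.53, adjusted p = 0.0291) among them. Of the other late sterol enzymes Msmo1 (1.51, adjusted p = 0.00859) and Sc5d (1.06, adjusted p = 0.0297) rose. Fatty acid uptake and oxidation gave 1 higher and 7 lower calls of 16, among them Fabp4, with 10.8, 39.4 and 33.6 CPM in KEP tumor, against 411, 706, 666 and 533 CPM in WT mammary gland, and Cd36, with 8.54, 44.4 and 25.4 CPM in KEP tumor, against 221, 363, 399.9 and 471 CPM in WT mammary gland. Slc27a1 (-1.92, adjusted p = 0.00682) and the transcription factor gene Ppara (-3.93, adjusted p = 0.0108) were lower as well. Ggps1 was higher (0.66, adjusted p = 0.0257) and Coq2 lower (-0.61, adjusted p = 0.0463) of 8 isoprenoid genes.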

How the data were processed

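RNA-seq libraries (TruSeq Stranded mRNA, 65-base single reads, HiSeq2500, RNA integrity number 8 to 10, per the labels' protocols) of sorted Tregs were processed by the authors with GRCm38, TopHat2 2.1.0 and HTSeq, the build and tools that the submitters' processing notes name. The deposited file holds raw counts per gene as the authors made them, and the strand setting and annotation release are not given in the sources used here. The file holds 24594 genes, of which 172 were at 0 in every library. Groups followed the labels. Adgre1 of the macrophage list is not analysed here, which leaves 7 genes.

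The members and the lists of related and marker genes were chosen with earlier results of these data known. Every member is named. Values in each library are given for called members, at most the 5 sterol and 5 fatty acid genes with the smallest p per comparison (for the 2 smallest p where fewer than 2 were called). Of each related list, at most 4 called genes are named, and 1 gene of these lists is not reported here. Promoters are of at most 6 genes, those called in the most of 16 comparisons and the sterol gene called in the fewest. CPM shown in the text use TMM factors over all 31 libraries, while each test used its own factors. The tests used edgeR 4.0.16 in R 4.3.3 (quasi-likelihood F test, robust, filterByExpr with a minimum count of 10, Benjamini-Hochberg adjustment, 0.05). KEP against WT, tissue against spleen and the interactions were fitted on the 24 libraries of lymph node, lung, blood and spleen (8 groups, 12825 genes, 31 members, Fads2 too low). Each tumor comparison was fitted on its own 2 groups' libraries. The p-values measure the spread between libraries, and counts per library (8154765 to 15258958) limit low genes such as Fads2.

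The dates in the library titles served as replicate blocks. Same-date libraries deviated together in KEP (18 of 18 pairs of libraries from different tissues with r over 0.1, median 0.376) and mostly in WT (15 of 18, median 0.144), but tumor did not follow its dates (0 of 6, median 0.005). No date holds both genotypes, so date entered KEP against WT as a random term in limma-voom (limma 3.58.1). Alternatives were RLE factors, scaling to 10 T cell genes, no count filter, all 31 libraries in 1 fit, DESeq2 1.42.0, limma-voom without the block, each library left out and, chosen after seeing the data, the KEP comparisons outside tumor without the earliest KEP date. The scripts were tested on simulated counts. Promoters came from a RefSeq table (GRCm38.p6).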

Additional observations from a re-analysis of the deposited data

Results flagged for a closer look

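In WT mammary gland, with 4 libraries, 3 members had 1 library apart from the other 3 by a gap test at the 95% level (Dixon), a test that chance meets in about 1 of 20 groups. Ebp was lowest in replicate 2 at 37.18 CPM. Elovl5 was highest in the same library at 181.4 CPM. Elovl6 was highest in replicate 1 at 40.42 CPM. Replicate 2 also had the largest sum of T cell genes in its group, at 2044 CPM.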

How the results depend on the processing

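Of 110 calls of members over the comparisons, 55 held whichever single library was left out. DESeq2 lost 3, RLE factors 4, no count filter 6, limma-voom without the block 1 of 30, the random date term 1 of 19, title date as a replicate block 4 of 80, all 31 libraries in 1 fit 45, and leaving out the earliest KEP date 20 of 44. Scaling to the T cell genes lost 13, and 6 more did not keep their sign. In tumor against mammary gland Hsd17b7 was at -2.18, Stard4 at -1.83, Cyp51 at -2.07 and Insig1 at -1.78, none of them called, and Dhcr7 was called lower at -2.35. In tumor against spleen Acss2 was at 0.0, a lost call with no direction. The cause of the changes below was not tested, and the single fit of all libraries shares 1 estimate of spread with the more variable tumor and mammary gland groups. For KEP against WT in spleen, members called were 2 with DESeq2, 0 with all 31 libraries, 2 with the random replicate block and 0 without the earliest KEP date (0 to 3 leaving out a library), and all genes called were 68 with all 31 libraries (243 to 537). In lymph node, members were 1 with DESeq2 and 1 without a count filter, and genes 306 with DESeq2, 2 with all libraries, 296 without a filter and 36 without the earliest date (28 to 110). In lung, members were 3 with all libraries and 2 without the earliest date (2 to 11), and genes 469 and 1273 (1367 to 2576). In blood, members were 2 and genes 657 with all libraries (members 6 to 11, genes 1566 to 2379). For tumor against mammary gland, members were 21 with all libraries and 26 with T cell scaling (3 to 12), and genes 5860 with DESeq2, 8064 with all libraries and 12269 with T cell scaling (1675 to 5394). For WT lymph node against spleen, members were 0 with all libraries and 8 with the replicate block (2 to 4), and genes 297 and 1871 (728 to 1027). For WT lung against spleen, members were 6 with all libraries (12 to 15, genes 5079 to 5363). For WT blood against spleen, members were 2 with all libraries, 4 with T cell scaling and 11 with the replicate block (3 to 10), and genes 1198 with all libraries (2295 to 3197). For KEP TDLN against spleen, members were 1 with all libraries, 6 with the replicate block and 1 without the earliest date (1 to 3), and genes 247, 2434 and 579 (741 to 1083). For KEP blood against spleen, members were 2 with all libraries and 5 without the earliest date (5 to 8), and genes 1100 and 1620 (2248 to 2992). KEP lung against spleen gave 10 to 12 members and 5392 to 5997 genes leaving out a library. For tumor against TDLN, genes were 9190 with all libraries and 3377 with T cell scaling (members 10 to 17, genes 3298 to 7652), and against spleen 9356 and 3723 (members 8 to 18, genes 3349 to 7984). Interactions called 0 members under every alternative run. Genes called for lymph node were 42 with DESeq2, 0 with all libraries, 42 without a filter, 4 with T cell scaling and 74 with the replicate block (4 to 22). For lung they were 12 with DESeq2, 1 with RLE factors, 0 with all libraries, 28 without a filter, 1 with T cell scaling and 38 with the replicate block (0 to 7), and for blood 12 with DESeq2, 24 without a filter and 54 with the replicate block (0 to 1). The replicate block changed no other count of members by over 1.5 times. No paired analysis was possible for tumor against mammary gland because the groups share no title date. In low genes the counts limit what can be seen, as for Fads2, which had 0 to 1 counts per library in KEP TDLN and KEP spleen.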
